A study of Mus musculus with 10 samples.

Results

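The 8 mRNAs described here encode adaptors that bring the deadenylation machinery to other mRNAs: Btg1, Btg2, Btg3, Tob1 and Tob2 of the BTG/TOB family, and Zfp36, Zfp36l1 and Zfp36l2 of the ZFP36 family. They were taken by gene symbol from a matrix of 15899 genes, and all 8 had a value in each of 10 RNA immunoprecipitation sequencing (RIP-seq) libraries. Neurospheres, floating aggregates of neural stem cells and their progeny, were grown with EGF and FGF from the brain subependymal zone of mice aged 10 weeks, and RNA was pulled down with an antibody to the FLAG epitope. The FLAG cultures (Mex3aFLAG/FLAG) carried a FLAG peptide knocked in at the end of endogenous Mex3a, which encodes a KH-domain RNA-binding protein, so that the tag was expressed from the gene's own promoter. The WT cultures (Mex3a+/+) came from the same background, had no tag and gave the nonspecific background of the pulldown. Formaldehyde-crosslinked cells gave 2 FLAG and 2 WT libraries, and native cells, not crosslinked, gave 3 FLAG and 3 WT libraries. Input RNA was not analysed here, so that more MEX3A-bound mRNA and more of that mRNA in the FLAG cultures cannot be told apart. The study's methods call the cultures biological replicates, but neither they nor the labels say whether these came from separate animals, so the p-values measure only the spread between these libraries.

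BTG and TOB proteins are antiproliferative factors that bind the CNOT7 and CNOT8 deadenylases of the CCR4-NOT complex, and the TOB proteins also bind the poly(A)-binding protein PABPC1. ZFP36 proteins carry a pair of CCCH zinc fingers that bind AU-rich elements in 3' UTRs and recruit CCR4-NOT, after which the poly(A) tail is shortened and the mRNA is degraded. Most of these genes are induced by growth factors, and their own mRNAs are short-lived.

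The sequences shown first are those that the pulled-down protein and the ZFP36 proteins could read in the members' own 3' UTRs, taken from the GENCODE M21 annotation of GRCm38. Motifs were searched on the sense strand only, in the 3' UTR that is the longest among a gene's annotated transcripts. The MEX-3 recognition element, a consensus from the C. elegans protein with a variable spacer, had a match in 8 of 8 members in the form given in the study's methods and in 7 of 8 in the form given in its results, with Tob2 at 0 matches. The presence of a match in these UTRs does not set the members apart, since between 72.0% and 99.5% of the 3' UTRs of coding genes of similar length (within 20%) also held a match of the first form. By number of matches of the first form, Btg1 had 14 in 4166 nt, Tob2 8 in 2457 nt, Zfp36l1 7 in 1835 nt, Zfp36l2 6 in 1822 nt, Btg2 5 in 2199 nt, Btg3 3 in 2554 nt, Tob1 2 in 767 nt and Zfp36 1 in 774 nt. Among similar UTRs, from 24.3% for Zfp36l1 to 84.9% for Btg3 had at least as many.

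Pairs of windows around these elements were compared among the Btg genes, among the Tob genes and among the Zfp36 genes, but not between these groups, and the longest run of shared letters was found in the pair from Zfp36l1 and Zfp36l2, with 13 bases, followed by the pair from Tob1 and Tob2, with 10 bases. They are shown because they are the most alike of the pairs compared, with the element in capitals, 5' to 3' on the gene's strand.
Tob1, chr11:94215083-94215112, plus strand: gtaaaatatcAGAGGATATAtatatattgt
Tob2, chr15:81848767-81848795, minus strand: gtaaaatgtaAGAGGTATAtatataatat
Zfp36l1, chr12:80108357-80108386, minus strand: tgacaaatccATAGAATATAttcttttatg
Zfp36l2, chr17:84184841-84184869, minus strand: gatgaaagcaATAGATATAtattctttta

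The AU-rich word TATTTAT, one that ZFP36 proteins bind and that contains ATTTA, was found in 5 of the 8 members. Zfp36, Zfp36l1 and Zfp36l2 had 3 matches each, Btg2 and Tob2 had 1 each, and Btg1, Btg3 and Tob1 had 0. At least as many were found in 0.613% of similar 3' UTRs for Zfp36, 3.91% for Zfp36l1 and 3.90% for Zfp36l2, so that the mRNAs of the 3 AU-rich element binding proteins were themselves rich in this word. The 3 Zfp36 sites, which lie within a short stretch and of which the last overlaps a MEX-3 recognition element, are shown with TATTTAT in capitals, as is the Btg2 site, which also overlaps one.
Zfp36, chr7:28376966-28376994, minus strand: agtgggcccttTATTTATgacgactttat
Zfp36, chr7:28376951-28376979, minus strand: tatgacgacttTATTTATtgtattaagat
Zfp36, chr7:28376926-28376954, minus strand: agattttatagTATTTATatatattgggt
Btg2, chr1:134077249-134077277, minus strand: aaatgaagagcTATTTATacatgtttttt

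The shorter word ATTTA had a match in 8 of 8 members, with the most in Btg1 (11) and Zfp36l1 (9), and 61.4% to 97.0% of similar 3' UTRs also held it. The Pumilio word TGTANATA had 2 matches, both in Btg1. The count for Btg3 depends on the gene model. Its longest annotated 3' UTR lies outside the bounds that the matrix gives for the gene. In the longest 3' UTR within those bounds, 439 nt, there were 7 matches of the MEX-3 recognition element, some of them overlapping, and 2 of TATTTAT. Of 890 similar 3' UTRs, 0% had as many matches of the element. That restriction was the third rule tried and was chosen after the motif counts had been seen. It left the counts of the other 7 members as they were. A match is only a run of letters, and no binding site was measured.

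All 8 members were read from protein-coding genes, with the positions of the matrix on GRCm38: Btg1 at chr10:96617006-96622809, Btg2 at chr1:134075170-134079120, Btg3 at chr16:78359860-78377192, Tob1 at chr11:94211454-94215495, Tob2 at chr15:81848270-81858326, Zfp36 at chr7:28376784-28380253, Zfp36l1 at chr12:80107754-80113013 and Zfp36l2 at chr17:84183931-84187947. No window of 75 nt was shared between the transcripts of 2 members, so reads of this length can tell the paralogs apart. Btg3 shared 12.4% of the windows of its longest transcript, and 50.9% of those of its longest transcript within the matrix's bounds, with the pseudogene Gm7334, and its value is uncertain for that reason. Whether the counting used strand is not stated. Zfp36l1 shares 1672 exonic bases with Gm26669 on the opposite strand, and Zfp36 shares 125 with Gm44710. Tob2 shares 289 with Gm49476 and Zfp36l2 shares 105 with AC132455.1, also on the opposite strand, neither of which is in the matrix.

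The deposited values are log2 values with nearly the same distribution in every library. Their depth is unknown. The number of genes tied at the lowest value was 329 in FLAG native replicate 1 and 178 in FLAG native replicate 3, against at most 3 elsewhere, an indirect sign of lower depth in these libraries. Mex3a itself was at 3.92 and 4.16 in the crosslinked FLAG libraries against 2.75 and 3.03 in WT, and at 5.95, 4.03 and 6.10 in the native FLAG libraries against 3.33, 3.52 and 2.89 in WT. Of the neural stem cell markers, Nes had a mean log2 value of 7.21 and Egfr of 10.43 in the crosslinked WT libraries, and Gfap and Hes5 were not in the matrix.

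Levels of different members were compared only per length, as the mean log2 value of a group minus log2 of the merged exon length in kb. In the crosslinked WT libraries, Zfp36l1 (1.96) and Btg2 (1.86) had the highest levels per length, followed by Zfp36l2 (1.62), Tob1 (0.98), Btg3 (0.36), Btg1 (0.28), Zfp36 (-0.82) and Tob2 (-1.52). Zfp36l1 and Btg2, and likewise Btg3 and Btg1, lay closer together than the SD of either over 2 libraries, and the other neighbours lay further apart than that. In the native WT libraries the order was the same except that Zfp36 (-1.96) was below Tob2 (-1.31), and of the neighbours only Btg1 and Tob2 lay further apart than the larger of their SDs. With the exons within the matrix's bounds, the level per length of Btg3 was 1.84 in the crosslinked WT libraries in place of 0.36, which would put it next to Btg2.

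The main question was whether the members' mRNAs were enriched with FLAG over the WT background. A gene was called where limma's adjusted p-value, by Benjamini-Hochberg over all 15899 genes, was under 0.05 and the log2 fold change was beyond 0.58 in either direction. None of the 8 members was called when all libraries were fitted with the protocol as a covariate, in which 0.264% of all genes were called higher and 0.233% lower. At an unadjusted p under 0.05, 6 members were higher by more than 0.58, against 7.24% of all genes, and 0 were lower by more than 0.58, against 5.28%. Btg3 was lower at that p by slightly less than 0.58, and 9.85% of all genes were lower at that p by any amount. The log2 fold change was above 0 for 7 of the 8 members and for 46.8% of all genes. The median log2 fold change was 1.13 over the members and -0.03 over all genes. The adjusted p-values of the members ran from 0.101 for Tob1 to 0.270 for Btg1, so that none of the differences held up after correction. Mex3a, whose mRNA the study lists as bound by MEX3A, was not called either. Its log2 fold change was 1.73 (SE 0.37, adjusted p = 0.0789) over all libraries. With crosslinking its adjusted p was 0.340, and in native conditions 0.201. The lack of a call therefore does not show a lack of enrichment.

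**Figure D1:**
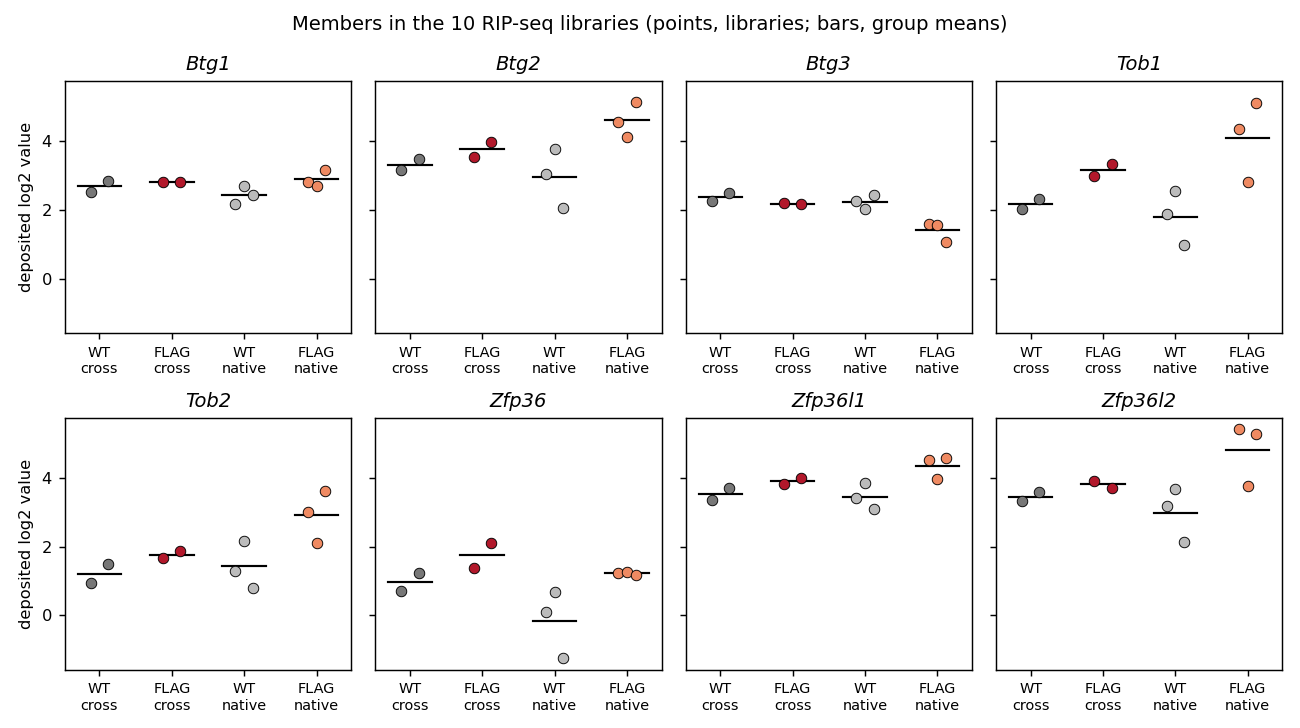
Deposited log2 values (y axis) of the 8 members in the 10 libraries, by group (x axis: WT and FLAG, crosslinked and native). Points are libraries and bars are group means. The FLAG libraries lie above the WT libraries of the same protocol for 5 members in both protocols, and below them for Btg3.

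Tob1, whose protein joins deadenylases to poly(A)-binding protein, had the largest difference of the 8. Its log2 value was 2.98 and 3.35 in the crosslinked FLAG libraries against 2.03 and 2.31 in WT. In the native libraries it was 4.34, 2.82 and 5.12 with FLAG against 1.88, 2.55 and 0.97 in WT. The groups did not overlap in either protocol, but FLAG native replicate 2 lay just above the highest native WT library, far below the other native FLAG libraries. The log2 fold change was 1.77 (SE 0.45, adjusted p = 0.101) over all libraries, 0.99 (SE 0.19, adjusted p = 0.425) with crosslinking and 2.30 (SE 0.59, adjusted p = 0.225) in native conditions.

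Tob2, the paralog of Tob1, was at 1.66 and 1.88 in the crosslinked FLAG libraries against 0.95 and 1.48 in WT. Its native values were 3.01, 2.09 and 3.62 with FLAG against 1.30, 2.17 and 0.79 in WT. The native groups overlapped, since WT replicate 2 was above FLAG replicate 2. Over all libraries it differed by 1.11 on the log2 scale (SE 0.35, adjusted p = 0.138).

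Btg2, an antiproliferative gene known as a p53 target and an early growth response gene, was at 3.54 and 3.98 in the crosslinked FLAG libraries against 3.17 and 3.47 in WT. Its native values were 4.56, 4.11 and 5.15 with FLAG against 3.04, 3.77 and 2.06 in WT. The groups did not overlap in either protocol, although the crosslinked gap was narrow. Its fold change on the log2 scale was 1.16 (SE 0.35, adjusted p = 0.134) over all libraries, 0.44 with crosslinking and 1.65 in native conditions.

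Btg1, the closest relative of Btg2 among the members, had the smallest difference. It was at 2.80 in both crosslinked FLAG libraries, between the WT values of 2.51 and 2.85. In native conditions it was at 2.81, 2.71 and 3.15 with FLAG, against 2.18, 2.70 and 2.42 in WT, a separation of less than the spread within either group. FLAG exceeded WT by 0.32 on the log2 scale (SE 0.16, adjusted p = 0.270), with a 95% confidence interval from -0.036 to 0.67.

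Btg3 was the only one of the 8 with lower values in FLAG. It was at 2.19 and 2.17 in the crosslinked FLAG libraries against 2.25 and 2.48 in WT, and at 1.59, 1.56 and 1.07 in the native FLAG libraries against 2.25, 2.04 and 2.43 in WT. The groups did not overlap in either protocol. The log2 fold change was -0.57 (SE 0.19, adjusted p = 0.149) over all libraries, -0.18 with crosslinking and -0.83 in native conditions.

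Zfp36, which encodes tristetraprolin, had the lowest level per length of the 8 in the native WT libraries. It was at 1.39 and 2.11 in the crosslinked FLAG libraries against 0.72 and 1.22 in WT. Its native FLAG values of 1.22, 1.25 and 1.19 were nearly equal, while the WT values of 0.09, 0.67 and -1.25 were spread widely. The groups did not overlap, and the log2 fold change was 1.14 (SE 0.35, adjusted p = 0.137) over all libraries. With a pseudocount of 8 added to the linear values, which shrinks the fold changes of low genes, it was 0.20. On that scale the other members were at 0.88 (Tob1), 0.80 (Zfp36l2), 0.71 (Btg2), 0.44 (Zfp36l1), 0.39 (Tob2), 0.14 (Btg1) and -0.18 (Btg3), each in the same direction with no call.

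Zfp36l2, which restrains the proliferation of progenitors in several tissues, was at 3.91 and 3.71 in the crosslinked FLAG libraries against 3.31 and 3.57 in WT. Its native values were 5.41, 3.76 and 5.27 with FLAG against 3.18, 3.67 and 2.12 in WT. The groups did not overlap, and again FLAG native replicate 2 was close to the highest WT library. The log2 fold change was 1.24 (SE 0.41, adjusted p = 0.152) over all libraries, 0.36 with crosslinking and 1.83 in native conditions.

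Zfp36l1, which had the highest level per length in WT, was at 3.82 and 3.99 in the crosslinked FLAG libraries against 3.36 and 3.72 in WT, and at 4.53, 3.97 and 4.57 in the native FLAG libraries against 3.42, 3.85 and 3.09 in WT. The groups did not overlap, and the log2 fold change was 0.69 (SE 0.19, adjusted p = 0.120) over all libraries. Gm26669, on the opposite strand, had nearly the same difference, 0.67 (SE 0.19, adjusted p = 0.124), and if the counting did not use strand, reads of the shared exons cannot be told apart between the genes. Gm44710, opposite Zfp36, had a log2 fold change of 0.08 (SE 0.22).

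**Figure D2:**
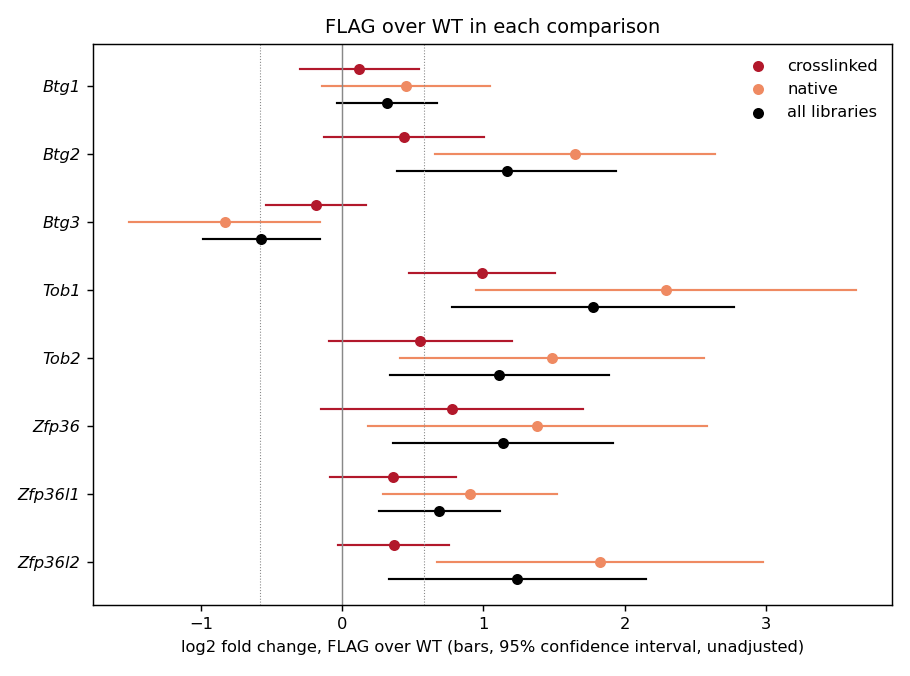
Log2 fold change of FLAG over WT (x axis) of each member (y axis) in the crosslinked, native and all libraries. Bars are 95% confidence intervals, not adjusted for the number of genes, and dotted lines mark 0.58 in either direction. In all 3 comparisons 7 members are above 0 and Btg3 is below.

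Taking each protocol alone, the FLAG libraries did not overlap with the WT libraries and were higher for 6 members with crosslinking, against 19.1% of all genes, and for 6 in native conditions, against 8.62%. Only Btg3 was lower without overlap, against 19.9% and 10.8% of all genes. The FLAG and WT libraries did not overlap in both protocols in the same direction for 5 with higher values (Btg2, Tob1, Zfp36, Zfp36l1 and Zfp36l2), against 4.84% of all genes, and for Btg3 with lower values, against 4.47% of all genes. In the crosslinked libraries alone, 0 members were called. In those libraries 0% of all genes were called, and at an unadjusted p under 0.05 only Tob1 was higher by more than 0.58, against 2.78% of all genes, and 0 were lower, against 0.987%. The log2 fold change was above 0 for 7 members in each protocol, against 46.3% of all genes with crosslinking and 47.4% in native conditions. In the native libraries alone 0 members were called, against 0% of all genes called higher and 0.107% called lower. At an unadjusted p under 0.05, 6 members were higher by more than 0.58, against 7.77% of all genes, and Btg3 was lower, against 7.06%.

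The native result turned on 1 library. Without FLAG native replicate 2, 5 members were called higher in the native libraries (Btg2, Tob1, Tob2, Zfp36l1 and Zfp36l2), against 9.12% of all genes, and Tob1 was called higher over all libraries, with a log2 fold change of 2.05 (SE 0.43, adjusted p = 0.0343), against 3.25% of all genes called higher and 1.17% called lower. When libraries were weighted by their agreement with their group, this library had the lowest weight of the 10 (0.189), and the same 5 members were called higher and Btg3 lower in the native libraries, against 8.84% and 10.2% of all genes. Without both native libraries numbered 2, an alternative added after the data were seen, 5 members were called higher in the native libraries, against 11.8% of all genes called higher and 13% called lower. The libraries that remain, FLAG native replicates 1 and 3, are those with the most genes tied at the lowest value. Without them, the log2 fold change over all libraries was 1.00 for Tob1, 0.75 for Btg2, 0.60 for Tob2, 1.05 for Zfp36, 0.54 for Zfp36l2 and 0.43 for Zfp36l1, each above 0 with no call. The part of depth in these differences was not tested.

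**Figure D3:**
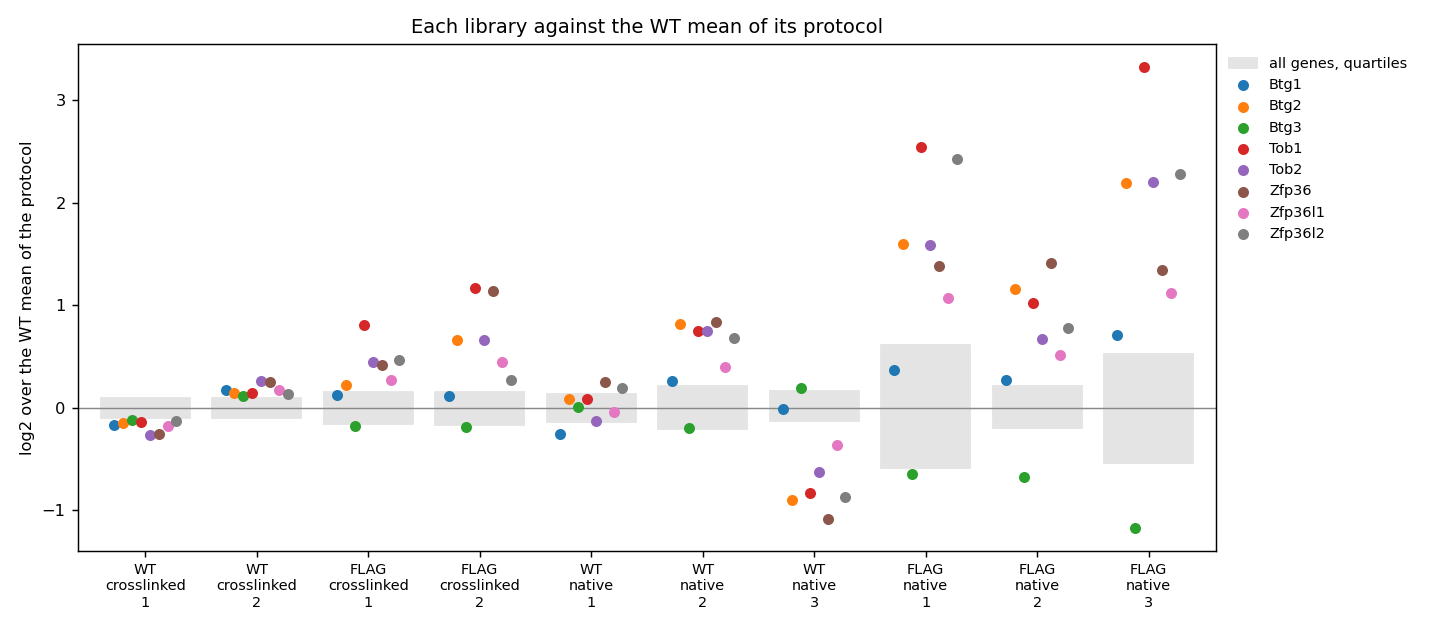
Log2 value of each member in each library (x axis) over the WT mean of the same protocol (y axis); grey boxes run from the lower to the upper quartile of all genes. WT native replicate 2 lies above and WT native replicate 3 below the WT mean for most members, and FLAG native replicate 2 lies nearer to the WT libraries than FLAG native replicates 1 and 3 for most.

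The members' median distance from the native WT mean was 0.05, 0.71 and -0.73 in the WT libraries and 1.49, 0.72 and 1.77 in the FLAG libraries, so that WT replicate 2 and FLAG replicate 2 were alike in this median. With crosslinking the median was 0.35 and 0.55 in the FLAG libraries. The most alike profiles over the 10 libraries among the members were those of Btg2 and Tob2, with a root mean square difference of 0.21. Outside the members, of 12700 genes with a mean log2 value of at least 1, the profiles closest to Tob1 were those of Sox4 (0.20), Sox11 (0.22) and Slc30a1 (0.23), the SOX genes being transcription factors of neural progenitors and Slc30a1 a zinc exporter. None of the 3 was called either, with log2 fold changes of 1.94, 1.58 and 1.56.

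Native and crosslinked libraries were then compared. The difference between the protocols in FLAG over WT, tested as an interaction, had an adjusted p of 0.970 for every member, and 0% of all genes were called. At an unadjusted p under 0.05, 0 members differed by more than 0.58, against 0.233% of all genes in one direction and 0.182% in the other. The largest estimate was for Zfp36l2, 1.46 higher in native conditions with a 95% confidence interval from -0.20 to 3.12, which leaves room for a large difference as well as for none. Crosslinked over native, 0 members were called among the WT libraries, against 0.044% of all genes called higher and 0.289% lower, and 0 among the FLAG libraries, against 0.044% and 0.396%. At an unadjusted p under 0.05, 0 members differed among the WT libraries, against 2.85% of all genes higher by more than 0.58 and 3.55% lower, and among the FLAG libraries 1 was higher and 1 lower, against 4.61% and 7.54%. Among the FLAG libraries Btg3 was 0.77 higher with crosslinking (SE 0.25, adjusted p = 0.207) and Tob2 was 1.14 lower (SE 0.49, adjusted p = 0.312). FLAG native replicate 2 mattered here too: without it 3 members were called in this comparison, Btg3 higher and Tob2 and Zfp36l2 lower, against 7.57% and 9.08% of all genes. Without both native libraries numbered 2, 1 was called higher and 4 lower, against 9.06% and 10.4%. With the libraries weighted by their agreement with their group, only Btg3 was called, higher with crosslinking, against 3.67% of all genes called higher and 5.69% lower. Btg4, a further BTG gene in the matrix, known from oocytes, was 0.23 lower on the log2 scale with FLAG (log2 fold change -0.23, SE 0.35, adjusted p = 0.694).

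The partners and relatives of the members were read from fixed gene lists in the fit of all libraries. Of 11 CCR4-NOT subunits 0 were called, with a median log2 fold change of -0.03, equal to that of all genes. Cnot7, the deadenylase that BTG and TOB proteins bind, had the highest value of the list, 0.86 (SE 0.24, adjusted p = 0.118), and Cnot4, its ubiquitin ligase, the lowest, -0.21. Of 6 measured poly(A)-binding proteins and their partners 0 were called, with a median of 0.25, and Pabpc1, the main cytoplasmic poly(A)-binding protein, had the highest value, 0.89 (SE 0.28, adjusted p = 0.137), and Paip2b, an inhibitor of PABPC1, the lowest, -0.085. Of 9 other deadenylases 0 were called (median -0.01), with Angel2 at 0.43 and Pnldc1, a trimmer of germline small RNAs, at -0.88.

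Downstream of deadenylation, 1 of 16 genes of decapping and 5' to 3' decay was called. This was Pnrc1, a nuclear receptor coactivator that also binds the decapping enzyme, with a log2 fold change of 1.02 (SE 0.17, adjusted p = 0.0366), while the median of the list was 0.01. Over all genes 42 were called higher in this fit, against 7 with genotype and replicate number as a random block. Whether Pnrc1 was among the 7 is not given here. Of 14 measured subunits of the RNA exosome and Ski complex 0 were called (median -0.09), with Exosc3 at 0.64 and Exosc7 at -0.50. Of 20 other measured sequence-specific decay adaptors 0 were called (median 0.15), with Rc3h2, a roquin, at 0.55 and Celf2 at -0.70. Of 14 other measured AU-rich element binding proteins 0 were called (median 0.20), with Pcbp1 at 0.86 and Elavl4, a neuronal stabiliser of AU-rich mRNAs, at -1.52 (SE 0.37, adjusted p = 0.0929). The log2 fold change was above 0 for 15 of the 20 decay adaptors and 10 of the 14 AU-rich element binding proteins, against 46.8% of all genes.

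Lists of mRNAs known to be short-lived, as the members' are, were read in the same way, and no difference between lists was tested. Of 12 measured mRNAs known as targets of the ZFP36 proteins 0 were called, but all 12 were above 0, with a median of 0.56. They ran from Hif1a at 0.18 to the cyclin gene Ccnd1 at 1.31 (SE 0.38, adjusted p = 0.124). Of 22 measured immediate early genes induced by growth factors 0 were called, 21 were above 0 against 46.8% of all genes, and the median was 0.68. At an unadjusted p under 0.05, 11 of them were higher by more than 0.58, against 7.24% of all genes. Klf4, a transcription factor, had the highest value, 2.32 (SE 0.58, adjusted p = 0.0960), and Atf3 the lowest, -0.05. Fos, Junb, Ier3, Myc and Dusp1 stand in both lists.

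**Figure D4:**
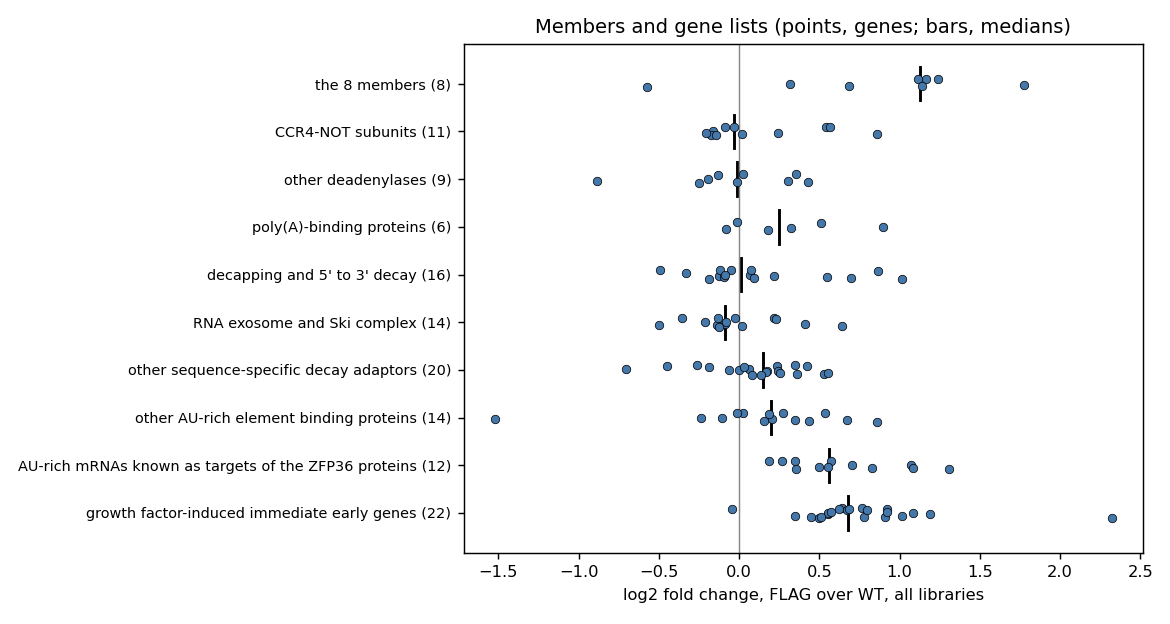
Log2 fold change of FLAG over WT in all libraries (x axis) for the 8 members and for the measured genes of each list (y axis, number of genes in brackets). Points are genes and bars are medians. The medians of the members (1.13), the immediate early genes (0.68) and the ZFP36 targets (0.56) are the highest of the lists plotted, which leave out the cell type markers.

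Of the measured cell type markers, only Rbfox3, which marks neurons, was called. It was lower with FLAG over all libraries (-1.31, SE 0.17, adjusted p = 0.0127). Over all genes 37 were called lower in this fit, against 8 with genotype and replicate number as a random block. Whether Rbfox3 was among the 8 is not given here. The other measured neuronal markers, Snap25 (-0.64), Syt1 (-0.52) and Syp (-0.26), were not called, with adjusted p from 0.270 to 0.539. The linear values of the 4 measured neuroblast and neuron markers were summed. The log2 of this sum was 3.65 to 4.47 in FLAG against 4.92 to 4.95 in WT with crosslinking, and 3.72 to 4.15 against 4.89 to 5.37 in native conditions. In every group Rbfox3 had the highest level of the 4. Of 8 measured neural stem cell markers 0 were called, with a median of 0.65, close to that of the immediate early genes, and with Slc1a3 the lowest at -0.44 (SE 0.16, adjusted p = 0.168), and their summed level overlapped between FLAG and WT in both protocols. Of 3 measured endothelial markers 0 were called, although all were below 0 (median -0.74, with Kdr at -1.09 and Pecam1 at -0.58). The few measured markers of microglia (Cx3cr1 and Csf1r) and ependymal cells (Foxj1) gave 0 calls, with medians of 0.11 and 0.35, and Cnp, a marker of oligodendrocytes, was at 0.24. The part of these markers in the members' differences was not tested.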

How the data were processed

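RIP-seq was measured in 10 libraries of 4 groups, named from the labels. Per the study's methods, the authors trimmed reads with Cutadapt and Trimmomatic, mapped them to GRCm38 with HISAT2, counted them per gene with featureCounts (GENCODE M16) and normalized and tested the counts with DESeq2. They deposited 1 matrix of log2 values for 15899 genes, whose near-identical distributions resemble quantile normalization, which DESeq2 does not give. The submitters' processing notes also name limma, and how the deposited values were normalized is not settled. The plan had foreseen other normalized values, and the log2 values were used as deposited. Raw counts, depth and counting error are unknown.

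FLAG and WT were compared with limma 3.58.1 (R 4.3.3), by lmFit and eBayes with a trend, in all libraries with the protocol as covariate, in each protocol, and in 1 fit of 4 groups for differences between protocols. Genes were called at an adjusted p under 0.05 and a log2 fold change beyond 0.58, the study's thresholds. The steps were tested on simulated data. The members and gene lists were chosen with earlier results of these data known. The genes named from each list are those called, or otherwise those with the highest and the lowest fold change. Some marker genes that this rule selects are not reported here. Motifs were searched as patterns in the longest annotated 3' UTR (GENCODE M21, 12177 coding genes); for Btg3 a second UTR, chosen after the counts were seen, is also given. Same-numbered libraries of FLAG and WT deviated in opposite directions (correlations from -0.430 to -0.149). The main fits did not pair them, and whether they shared any handling was not tested. Same-numbered libraries of 1 genotype deviated together across protocols (0.154 to 0.388) and may share a culture. The fits were repeated under 21 other settings that had been listed at the start and 4 that were added after the data were seen. Tables were made in Python 3.11.15 with pandas 2.3.3 and scipy 1.17.1.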

Additional observations from a re-analysis of the deposited data

How the results depend on the processing

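Of the 21 alternatives listed at the start and 4 added after the data were seen, not all gave a value for every result. For FLAG over WT, each member had 23 or 24 over all libraries and with crosslinking, and 22 or 23 in native conditions. In a fit of 1 protocol, leaving out a library of the other protocol could change nothing. In these alternatives the log2 fold changes kept their direction for all 8 members over all libraries and in the native libraries, and for 7 in the crosslinked libraries. With crosslinking, when each library was left out in turn, Btg1 ran from -0.051 to 0.29, Btg2 from 0.22 to 0.66, Btg3 from -0.30 to -0.070, Tob2 from 0.29 to 0.82, Zfp36 from 0.42 to 1.14, Zfp36l1 from 0.19 to 0.54 and Zfp36l2 from 0.23 to 0.50. The number of members called ran from 0 to 1 over all libraries, from 0 to 5 in the native libraries and from 0 to 3 for crosslinked over native FLAG when 1 library was left out, with every call made without FLAG native replicate 2. Array weights gave 6 calls in the native libraries and 1 for crosslinked over native FLAG, where 3.67% of all genes were called higher and 5.69% lower. Without both native libraries numbered 2, an alternative added after the data were seen, 5 members were called in each of these comparisons, against 11.8% of all genes higher and 13% lower in the native libraries and 9.06% and 10.4% for crosslinked over native FLAG. All other alternatives gave 0 calls. Of the values for crosslinked over native, leaving out single WT libraries moved Btg2 from -0.086 to 0.77, Tob1 from -0.040 to 0.75, Tob2 from -0.52 to 0.17 and Zfp36l1 from -0.092 to 0.29 in WT, and leaving out FLAG libraries moved Btg1 from -0.17 to 0.048 in FLAG. Without both native libraries numbered 2, Tob2 was 0.17 in WT. Without FLAG native replicates 1 and 3, also added later, Btg1 was 0.098, Tob1 0.34 and Zfp36l2 0.044 in FLAG, on the other side of 0. The cause was not tested.

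With the replicate number as a block, 0 members were called in each comparison, and over all genes the calls of FLAG over WT fell from 42 higher and 37 lower to 14 and 20. The crossed pairing of the crosslinked libraries, and genotype and number as a random block, both added later, also gave 0 calls among the members, and the random block gave 7 higher and 8 lower over all genes for FLAG over WT. For crosslinked over native, the calls over all genes were 7 higher and 46 lower in WT and 7 and 63 in FLAG, against 2 and 0 in WT and 2 and 10 in FLAG with the replicate number as a block, and 9 and 83 in WT and 21 and 171 in FLAG with the random block. A minimum mean of 10 on the linear scale left 4 members, with 0 calls, and a minimum of 50 left 0, so that this alternative gave no value. The Btg3 matches of the MEX-3 recognition element were 3 in the longest 3' UTR, 10 in the merged 3' UTR exons and 7 within the matrix's bounds, and those of TATTTAT were 0, 2 and 2.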
